A study of Mus musculus with 8 samples.

Results

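The genes of the constitutive proteasome were examined in CD8 T cells of mice with and without interleukin-2. The members were the rows whose RefSeq symbol starts with Psma, Psmb, Psmc, Psmd, Psme, Psmf or Psmg followed by a digit, without the immunoproteasome genes Psmb8, Psmb9 and Psmb10. This gave 45 of 11723 listed genes. Of the 45, 43 encode subunits, activators, an inhibitor or assembly factors of the proteasome, and 2 (Psmc3ip and Psme3ip1) carry such a symbol because their proteins bind one. The cells were sorted from peripheral lymph nodes of BALB/c mice 12 days of age, and their total RNA was made into stranded libraries. The wild-type (WT) group had 4 libraries, from 115000000, 28700000, 1300000 and 1300000 sorted cells of 5, 5, 3 and 2 pooled mice. The group without interleukin-2 (IL-2-KO) also had 4, from 26700000, 42600000, 1100000 and 400000 cells, with no pooling stated. The design text of the series differs from the labels in that it adds spleen as a source and heterozygous mice as controls. It calls the libraries biological replicates.

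The proteasome is the barrel-shaped protease that degrades proteins tagged with ubiquitin. Its core is built of alpha rings, which gate the entrance, and beta rings, which hold the proteolytic sites. A cap made of a base, with a ring of ATPases that unfold substrates, and a lid, with the enzyme that removes ubiquitin, binds the core. Other activators bind the same surface of the alpha ring, and dedicated chaperones assist assembly. Interferon gamma induces counterparts of the 3 proteolytic beta subunits. Cores built with these counterparts alter the peptides made for display on MHC class I molecules.

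Promoters of 4 members that passed the test below are printed, 1 each from the alpha ring, the beta ring, the ATPase ring and the activators. Each is a window of 250 bases before to 50 bases after the annotated start, 5′ to 3′ on the gene's strand (RefSeq, GRCm38.p6). Capitals mark matches, on either strand, to CCAAT (the box bound by NF-Y), CGGAAG (a core bound by ETS factors), TGACNNNGC (the antioxidant response element, bound by the proteasome regulator Nfe2l1), GAAA followed after any 2 bases by GAAA (an interferon-stimulated response element) and TTCNNNGAA (a STAT site). These motifs may overlap.
Psma1, chr7:114276067-114276366, minus strand: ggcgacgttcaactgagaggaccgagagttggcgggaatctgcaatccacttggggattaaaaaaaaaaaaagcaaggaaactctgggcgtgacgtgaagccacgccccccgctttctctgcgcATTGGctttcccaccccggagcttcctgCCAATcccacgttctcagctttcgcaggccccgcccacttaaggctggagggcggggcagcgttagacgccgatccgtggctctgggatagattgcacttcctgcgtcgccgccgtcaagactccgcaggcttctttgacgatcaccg
Psmb4, chr3:94886909-94887208, minus strand: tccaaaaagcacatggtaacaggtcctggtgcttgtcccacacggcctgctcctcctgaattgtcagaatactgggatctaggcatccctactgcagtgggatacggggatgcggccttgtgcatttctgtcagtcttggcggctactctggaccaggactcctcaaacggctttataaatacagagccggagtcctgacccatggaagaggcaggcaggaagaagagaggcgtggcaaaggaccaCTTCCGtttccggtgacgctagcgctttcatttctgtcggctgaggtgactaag
Psmc1, chr12:100109952-100110251, plus strand: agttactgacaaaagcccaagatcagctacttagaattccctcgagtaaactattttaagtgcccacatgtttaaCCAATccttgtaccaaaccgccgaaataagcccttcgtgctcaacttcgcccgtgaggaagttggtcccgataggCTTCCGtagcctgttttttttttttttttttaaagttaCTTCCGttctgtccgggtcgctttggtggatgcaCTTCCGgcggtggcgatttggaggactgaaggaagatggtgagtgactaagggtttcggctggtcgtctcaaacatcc
Psme1, chr14:55578244-55578543, plus strand: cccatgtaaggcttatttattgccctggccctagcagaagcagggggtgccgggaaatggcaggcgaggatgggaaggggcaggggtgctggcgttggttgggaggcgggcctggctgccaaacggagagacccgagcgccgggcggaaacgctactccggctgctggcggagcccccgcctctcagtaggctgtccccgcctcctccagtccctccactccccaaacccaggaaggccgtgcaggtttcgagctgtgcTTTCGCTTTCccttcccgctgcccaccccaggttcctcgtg
A RefSeq window was matched for 36 of the 43 proteasome genes. CGGAAG was present in 21 of the 36 (58.3%), against 36.6% of the 9350 listed genes with a window and 18.8% of all 27025 genes with one. CCAAT was present in 12 (33.3%, against 43.6%), and TGACNNNGC in 6 (16.7%, against 17.0%), Psmb5, Psmb6, Psmc6, Psmd9, Psmd12 and Psme4. The interferon element was present in 5 (13.9%, against 3.81%), Psmb3, Psmd4, Psmd9, Psme1 and Psmg4, and of these only Psme1 passed the test between the groups. TTCNNNGAA was present in 2 (5.56%, against 8.32%), Psmd2 and Psmg1. The matches describe letters in these windows and show no binding.

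The libraries held from about 11900000 to 18400000 counts over the listed genes. All levels are TMM-scaled CPM, counts divided by a scaled library size, and 1 CPM stood for 11.9 to 18.6 counts. The lowest member value in any library was 3.29 CPM, so all 45 members passed the filter of at least 1 CPM in at least 4 libraries. All 8 CD8 T cell markers were listed, with a summed level of 6273 to 7059 CPM in WT and 5546 to 6578 in IL-2-KO. Of the B cell markers 3 of 8 had a row (15.7 to 26.2 CPM in WT, 12.3 to 36.2 in IL-2-KO), and of the myeloid and dendritic markers 5 of 10. The latter summed to 118 CPM in WT replicate 2 and 490.4 in IL-2-KO replicate 3, against 31.3 to 43.5 in the other libraries. Cd4 was also high in these 2 libraries, at 38.6 and 45.5 CPM, against 0.461 to 2.48 elsewhere. The 3 natural killer markers summed to 108 to 156 CPM in WT and 245 to 393 in IL-2-KO, of which Eomes, also made by CD8 T cells, gave 105 to 154 and 208 to 390 CPM. The 4 markers of CD4 and regulatory T cells summed to 12.4 to 86.2 CPM in WT and to 61.9 to 229.6 in IL-2-KO. Ctla4, which activated CD8 T cells also make, gave 5.79 to 30.8 and 51.5 to 170.9 CPM of these sums, while Foxp3 stood at 3.92 to 4.49 CPM in WT and 2.69 to 3.56 in IL-2-KO. The part of these markers in the results was not tested, except where libraries were left out. The 3 listed erythroid markers ranged from 11.2 to 70.1 CPM in WT and from 8.06 to 32.9 in IL-2-KO.

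A part of the proteasome genes rose in the IL-2-KO cells by a small margin. Of the 10 that did, 6 encode core subunits, which make up 14 of the 43. With the GC and length trend removed, 6 of the 43 were higher and 2 lower, against 10.5% and 16% of all genes. The median log2 change of the 43 was then 0.08, against -0.07 over all genes. Of the 14 core genes, 4 were higher and 1 lower in that fit. The 43 genes summed to 4616, 4633, 4344 and 4386 CPM in WT replicates 1 to 4 and to 5354, 5052, 5408 and 4916 CPM in IL-2-KO replicates 1 to 4. Each IL-2-KO sum lay above all WT sums. In bulk libraries, a change in the share of cells that make a transcript and a change in transcript per cell cannot be told apart. By limma with Benjamini-Hochberg adjustment over 11530 genes, 10 of the 43 rose (23.3%) and none fell, with 18 higher and 1 lower at an unadjusted p under 0.05. Of all genes tested, 11.1% were called higher and 8.03% lower. The share of all genes under the unadjusted threshold was not counted, so unadjusted counts here and below have no background beside them. Counted without a test, 13 members had their lowest IL-2-KO value above their highest WT value, and 0 the reverse. Of all genes, 12.9% and 11.2% did so. The median log2 change of the 43 was 0.18, against -0.0097 over all genes tested. Changes were small, from -0.31 to 0.45 on the log2(CPM + 0.5) scale. Without WT replicate 3 or without WT replicate 4 the count was 4 in both cases, when 7.34% and 7.68% of all genes were called higher. Without the 4 libraries of under 2000000 cells it was 0, with 2 at an unadjusted p under 0.05, a median log2 change of 0.15 and 2.79% of all genes called higher.

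**Figure D1:**
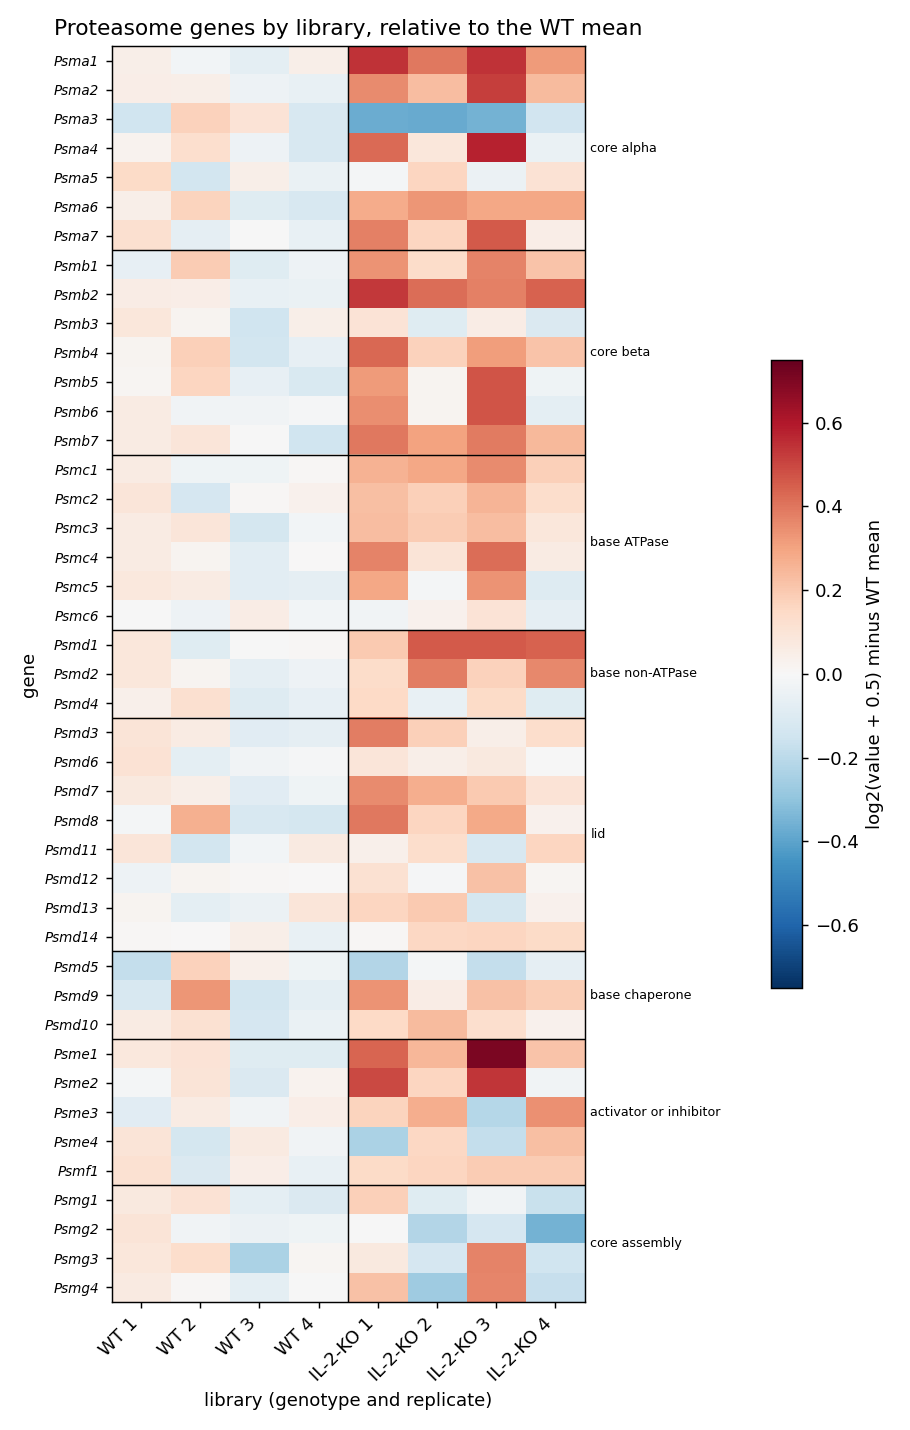
Each row is 1 of the 43 proteasome genes, grouped by role, and each column 1 library. Colour gives log2(CPM + 0.5) minus the mean of the 4 WT libraries, from blue (lower) to red (higher). Psma1, Psma2, Psmb2 and Psmb7 are above the WT mean in all 4 IL-2-KO libraries, while Psma3 and Psmg2 are below or near it.

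In the alpha ring, 3 of 7 genes rose and none fell, against 11.1% and 8.03% of all genes, and the median log2 change was 0.26. With the GC and length trend removed, 2 of the 7 were higher and 1 lower, against 10.5% and 16% of all genes. The median was then 0.14 (all genes -0.07). Psma1 stood at 129, 123, 119 and 128 CPM in WT replicates 1 to 4 and at 181, 164, 181 and 155 in the IL-2-KO libraries, with no overlap. It rose 1.37-fold (125 ± 4.75 to 171 ± 13.0 CPM, mean ± SD, n = 4 per group; log2 change 0.45, 95% confidence interval 0.29 to 0.61, limma adjusted p = 0.0021, Benjamini-Hochberg). The call held whichever single library was left out (adjusted p up to 0.0111). Psma2 stood at 145, 144, 137 and 135 CPM in WT and at 179.6, 165, 201 and 165 in IL-2-KO, again with no overlap. It rose 1.26-fold (limma adjusted p = 0.0143), and did not pass without WT replicate 3 or 4 (adjusted p = 0.0517 and 0.0534). Psma6 rose 1.23-fold (131 ± 12.2 to 161 ± 2.61 CPM, limma adjusted p = 0.0212), with every IL-2-KO value above every WT value. Its call was lost without WT replicate 3, WT replicate 4 or IL-2-KO replicate 2 (adjusted p from 0.0537 to 0.0774), and with the GC and length trend removed (log2 change 0.30 to 0.16, adjusted p = 0.140).

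The other alpha genes did not pass. Psma7 went from 168 ± 10.1 to 202 ± 26.5 CPM (limma adjusted p = 0.0847), and was called higher once IL-2-KO replicate 4 was left out (adjusted p = 0.0291). Psma4 stood at 105 ± 7.60 and 127 ± 25.5 CPM (adjusted p = 0.198), and Psma5 at 29.3 ± 2.51 and 30.3 ± 2.09 (adjusted p = 0.748). Psma3 pointed the other way. Its values were 45.5, 57.0, 54.2 and 46.4 CPM in WT and 39.0, 38.8, 39.5 and 45.8 in IL-2-KO, so that the groups overlapped only through IL-2-KO replicate 4. Its log2 change was -0.31 (95% confidence interval -0.53 to -0.09, limma adjusted p = 0.0539), and it passed as lower without that library (adjusted p = 0.0321), with a median shift or quantile normalization, and with the GC and length trend removed (adjusted p = 0.0154). The annotated span of Psma3 overlaps 3110056K07Rik, so some of its reads may belong to that gene.

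In the beta ring, 3 of 7 genes likewise rose and none fell, against 11.1% and 8.03% of all genes, with a median log2 change of 0.26. With the GC and length trend removed, 2 of the 7 were higher and none lower, against 10.5% and 16% of all genes. The median was then 0.17. Psmb2 had the smallest adjusted p of the 43. Its WT libraries held 105, 104, 97.0 and 97.4 CPM and its IL-2-KO libraries 146, 135, 131 and 137, with no overlap. It rose 1.36-fold (101 ± 4.15 to 137 ± 6.27 CPM; log2 change 0.44, 95% confidence interval 0.30 to 0.59, limma adjusted p = 0.00117). Psmb4 rose 1.22-fold (143 ± 13.7 to 174 ± 14.0 CPM) but only just passed (limma adjusted p = 0.0462), and its groups overlapped. Without any 1 of 7 libraries (all but WT replicate 2) its adjusted p was from 0.0509 to 0.144. It also did not pass with a median shift, quantile normalization, no mean-variance trend or the GC and length trend removed (adjusted p = 0.0662, 0.0701, 0.0754 and 0.101), the last with a log2 change of 0.17 against 0.28. Psmb1 went from 188 ± 17.4 to 225 ± 16.7 CPM (limma adjusted p = 0.0529), and was called higher when replicate 2 of either group was left out (adjusted p = 0.0178 and 0.0483). Psmb3 stood at 56.8 ± 4.00 and 56.4 ± 4.13 CPM (adjusted p = 0.951).

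Among the beta subunits that carry the proteolytic sites, Psmb7, of the trypsin-like site, rose. Its libraries held 104, 106, 99.0 and 89.4 CPM in WT and 131, 122, 130.5 and 118 in IL-2-KO, with no overlap. The change was 1.26-fold (99.5 ± 7.31 to 125 ± 6.41 CPM, limma adjusted p = 0.0118), and it passed whichever single library was left out (adjusted p up to 0.0438). With the GC and length trend removed its log2 change was 0.20 against 0.33 (adjusted p = 0.0483). Psmb5, of the chymotrypsin-like site, held 29.6, 32.9, 28.0 and 27.0 CPM in WT and 36.6, 29.7, 40.8 and 28.6 in IL-2-KO. Psmb6, of the caspase-like site, held 91.6, 86.0, 86.0 and 87.2 CPM in WT and 112, 88.8, 122 and 83.2 in IL-2-KO. In both genes IL-2-KO replicates 1 and 3 lay above all WT libraries, and IL-2-KO replicates 2 and 4 lay within or near the WT range. Neither passed (limma adjusted p = 0.322 for Psmb5 and 0.287 for Psmb6), with 95% confidence intervals from -0.09 to 0.48 and from -0.07 to 0.45 on the log2 scale. RefSeq names pseudogenes of Psmb5, Psmb6, Psmb7 and Psma5, with which reads may have been shared.

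**Figure D2:**
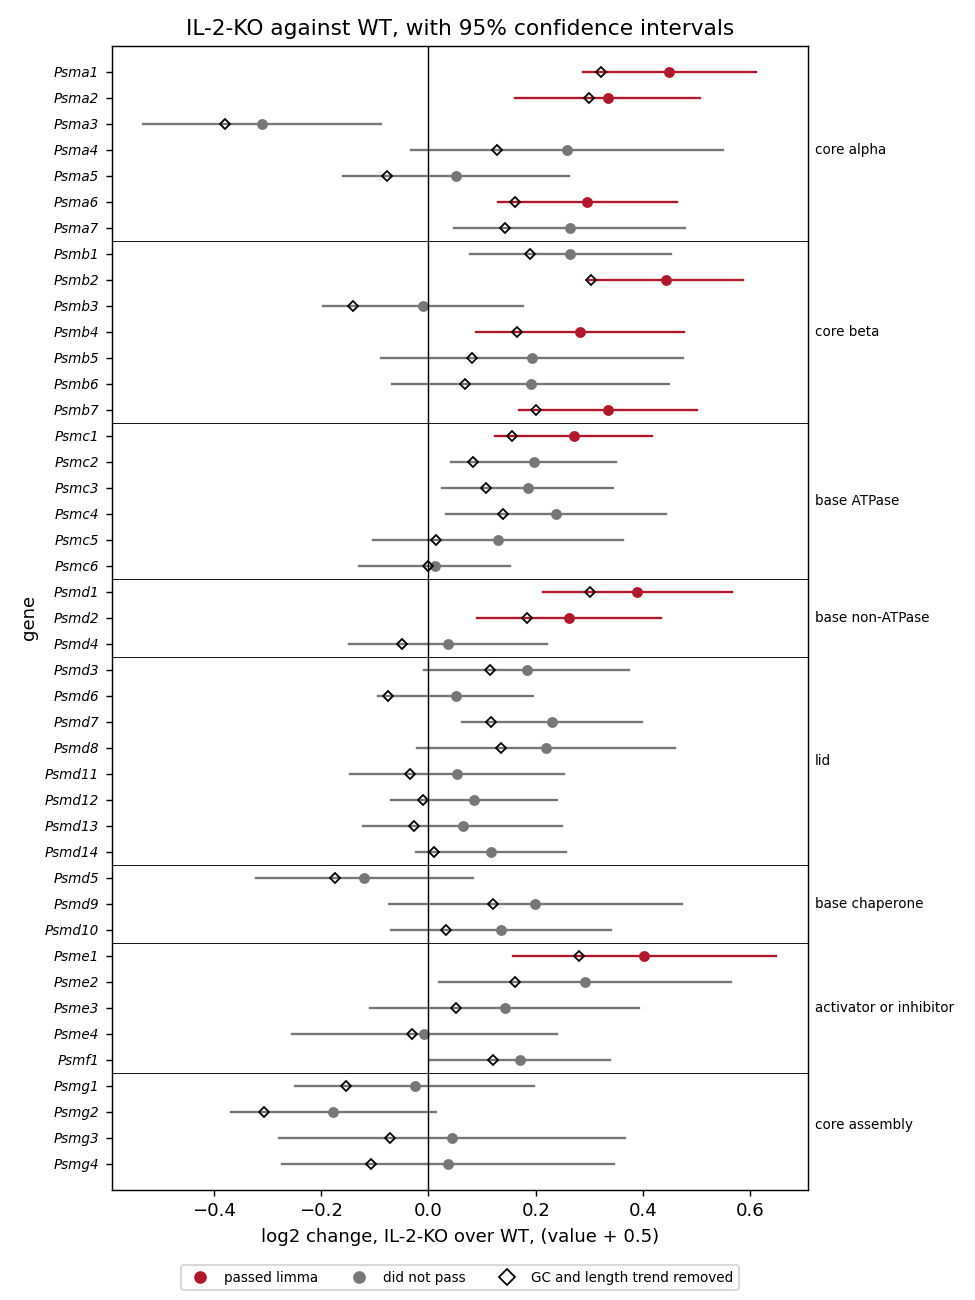
Log2 change from WT to IL-2-KO of CPM + 0.5 (x axis) for each of the 43 proteasome genes (y axis), with bars for the 95% confidence interval by limma. Red points passed at an adjusted p under 0.05, grey points did not, and open diamonds give the change after the GC and length trend was removed. All 10 red points lie to the right of 0, and all 8 lid genes are grey.

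In the base of the cap, 3 of 9 genes rose and none fell, against 11.1% and 8.03% of all genes. With the GC and length trend removed, 1 of the 9 was higher and none lower, against 10.5% and 16% of all genes. Psmd1 and Psmd2, the large scaffold subunits of the base, both rose. Psmd1 stood at 107, 94.6, 100.3 and 101 CPM in WT and at 115, 139, 139 and 137 in IL-2-KO, with no overlap although IL-2-KO replicate 1 was nearer to WT. It rose 1.31-fold (log2 change 0.39, 95% confidence interval 0.21 to 0.57, limma adjusted p = 0.00746), and held whichever single library was left out (adjusted p up to 0.0284). Psmd2 rose 1.20-fold (151 ± 7.03 to 181 ± 15.8 CPM, limma adjusted p = 0.0391) with no overlap. Its call was lost when any WT library, or IL-2-KO replicate 2 or 4, was left out (adjusted p from 0.0577 to 0.120). It also did not pass with a median shift, no mean-variance trend, a term for cell number or the GC and length trend removed (adjusted p = 0.0662, 0.0665, 0.0556 and 0.121). Psmd4, a ubiquitin receptor, stood at 134 ± 9.33 and 137 ± 12.3 CPM (adjusted p = 0.801).

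Of the 6 ATPase genes of the base, Psmc1 alone passed. It held 80.3, 75.3, 75.3 and 77.4 CPM in WT and 92.5, 94.2, 98.5 and 87.2 in IL-2-KO, with no overlap. Psmc1 rose 1.21-fold (limma adjusted p = 0.0179), and did not pass without WT replicate 3 or 4 (adjusted p = 0.0564 and 0.0645) or without the 2 libraries high in myeloid markers (adjusted p = 0.0631). With the GC and length trend removed its log2 change was 0.16 against 0.27 (adjusted p = 0.103). Psmc2 and Psmc4 also showed no overlap, but their limma adjusted p was 0.0747 and 0.0999. Psmc4 passed without IL-2-KO replicate 4 (adjusted p = 0.0472). Psmc3 and Psmc5 had log2 changes of 0.18 and 0.13 (adjusted p = 0.101 and 0.426), and Psmc6 stood at 134 ± 3.88 and 135 ± 6.79 CPM, with a 95% confidence interval of its log2 change from -0.13 to 0.15.

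None of the 8 lid genes passed, though all 8 log2 changes were above 0, with a median of 0.10, and those of Psmd6, Psmd11, Psmd12 and Psmd13 were below 0 with the GC and length trend removed. Of the 8, 1 (Psmd7) had an unadjusted p under 0.05. With array weights, which called 19.4% of all genes higher, 4 of the 8 were called higher. Psmd7, which pairs with the deubiquitinase subunit, showed no overlap, at 83.6, 82.0, 74.8 and 77.9 CPM in WT and 102, 96.0, 91.3 and 85.3 in IL-2-KO (limma adjusted p = 0.0585). It passed without IL-2-KO replicate 4 (adjusted p = 0.0336). Psmd14, the deubiquitinase itself, held 144, 144, 148 and 138 CPM in WT and 144, 159.6, 160.1 and 158 in IL-2-KO (log2 change 0.12, 95% confidence interval -0.02 to 0.26, limma adjusted p = 0.229). Psmd3 and Psmd8 had log2 changes of 0.18 and 0.22 (adjusted p = 0.168 and 0.187). Psmd6, Psmd12 and Psmd13 had log2 changes from 0.05 to 0.09. Psmd11, a lid scaffold subunit, stood at 48.4 ± 3.48 and 50.3 ± 4.37 CPM (adjusted p = 0.722). Whether the lid differed from the core in its response was not tested. After the GC and length trend was removed the median of the lid genes was -0.0005, and those of the alpha and beta rings were also lower than before.

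Among the activators, Psme1 rose and the rest did not pass. Psme1 and Psme2 encode the partner subunits of PA28, an activator induced by interferon gamma, and lie 5913 bases apart on chromosome 14 (GRCm38; 55578494 to 55581527 and 55587440 to 55591101). Psme1 held 322, 328, 287 and 287 CPM in WT and 414, 364, 498 and 355 in IL-2-KO, with no overlap and the highest value in IL-2-KO replicate 3. It rose 1.32-fold (306 ± 22.2 to 408 ± 65.8 CPM, limma adjusted p = 0.0301). The call was lost without WT replicate 1, 3 or 4 or IL-2-KO replicate 1 (adjusted p from 0.056 to 0.0953), and with no mean-variance trend (adjusted p = 0.0502). When the 2 libraries high in myeloid markers were left out together, Psme1 still passed (adjusted p = 0.0329), and 11 of the 43 genes were higher, 9 of them among the 10, with 10.7% of all genes called higher.

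Psme2 held 90.7, 98.1, 85.1 and 93.4 CPM in WT and 129.7, 102, 133 and 90.1 in IL-2-KO, with IL-2-KO replicate 4 inside the WT range (log2 change 0.29, limma adjusted p = 0.127). It passed without that library (adjusted p = 0.0253). Psme3, whose protein forms a nuclear activator, stood at 176, 195, 183 and 193 CPM in WT and at 209.8, 225, 161 and 237 in IL-2-KO. IL-2-KO replicate 3 was its lowest library, and without it Psme3 passed as higher (adjusted p = 0.0408, against 0.414 with all 8). Psme4, a large nuclear activator gene, stood at 157 ± 10.9 and 157 ± 25.2 CPM (adjusted p = 0.970). The inhibitor gene Psmf1 was narrowly higher in each IL-2-KO library, at 49.9 to 51.7 CPM against 41.9 to 48.9 in WT (log2 change 0.17, adjusted p = 0.143).

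None of the assembly genes passed. Psmg1 to Psmg4 encode the chaperones that build the core, and their median log2 change was 0.0055, or -0.13 with the GC and length trend removed. Psmg2 held 80.7, 74.1, 73.1 and 73.6 CPM in WT and 75.0, 64.5, 68.9 and 58.8 in IL-2-KO (log2 change -0.18, 95% confidence interval -0.37 to 0.01, limma adjusted p = 0.179), and was called lower with the GC and length trend removed (adjusted p = 0.0196). Psmg1, Psmg3 and Psmg4 had log2 changes from -0.03 to 0.04. Psmg4 held 37.5, 26.6, 41.6 and 28.5 CPM in the IL-2-KO libraries against 30.6 to 33.6 in WT, so that IL-2-KO lay on both sides of WT. The chaperones of the base, Psmd5, Psmd9 and Psmd10, had log2 changes of -0.12, 0.20 and 0.14 (adjusted p = 0.397, 0.292 and 0.341).

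The member by rule that is no proteasome gene but changed most was Psmc3ip, named here after its values were seen. It encodes a recombination factor known from meiosis. It held 3.41, 3.29, 4.89 and 3.50 CPM in WT and 6.50, 7.41, 7.31 and 5.98 in IL-2-KO, with no overlap, and rose 1.72-fold (limma adjusted p = 0.00782). The annotated span of Psmc3ip overlaps that of Mlx. Psme3ip1, whose protein binds that of Psme3, stood at 77.5 ± 6.62 and 76.5 ± 8.46 CPM (adjusted p = 0.908).

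The spread within the IL-2-KO group followed the library. The highest IL-2-KO value was in replicate 3 for 20 of the 43 genes and in replicate 1 for 13, and the lowest was in replicate 4 for 23. The coefficient of variation was larger in IL-2-KO than in WT for 29 of 43, with medians of 8.59% and 6.40%. Neither this count nor those of highest and lowest values were made over all genes. Whether they are particular to the members was not tested. Median log2 differences of the 43 from the WT mean were 0.22, 0.16, 0.23 and 0.09 in IL-2-KO replicates 1 to 4. When the 11324 tested genes with an annotated exon length were divided by it into 4 groups of about equal size, the group of shortest genes had medians of 0.15, -0.05, 0.15 and -0.08 in these libraries and the group of longest genes -0.17, 0.04, -0.16 and 0.08. Of the 43 proteasome genes 28 are in the group of shortest genes, and the median exon length of all 45 members was 1541 bases against 3319 over all listed genes. After trends of GC content and exon length were removed in each library, 6 of the 43 were higher and 2 lower, against 10.5% and 16% of all genes, and the median log2 change was 0.08 against -0.07. The part of length in the result was not tested further. The 6 were all among the 10, namely Psma1, Psma2, Psmb2, Psmb7, Psmd1 and Psme1, and the 2 lower genes were Psma3 and Psmg2.

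**Figure D3:**
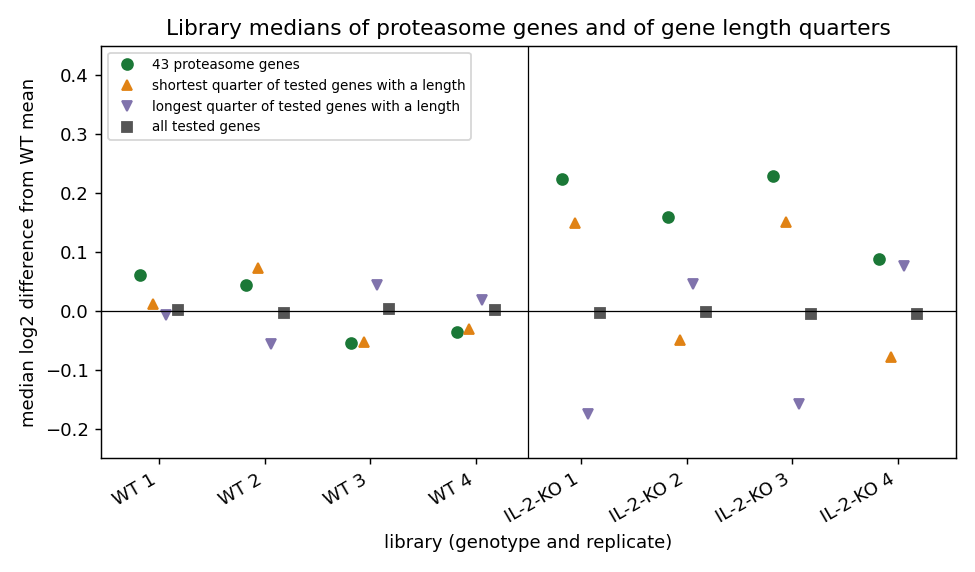
Median log2 difference from the WT mean (y axis) in each library (x axis), for the 43 proteasome genes (green circles), for the shortest and longest of 4 about equal groups, by exon length, of the 11324 tested genes with a length (orange and purple triangles), and for all tested genes (grey squares). In IL-2-KO replicates 1 and 3 the short genes are above 0 and the long genes below, and the proteasome genes are highest there, at 0.22 and 0.23.

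The 2 ranges of sorted cell number gave the same direction for most members. Between the libraries of over 2000000 cells the median log2 change of the 43 was 0.15, and between those of fewer cells it was 0.21, each with 2 libraries a group. The change was above 0 in both ranges for 31 of 43 genes. The share of all genes for which this held was not counted. Each main log2 change is the mean of the changes in the 2 ranges, so the ranges are no independent check of it. With the range as a term in the fit, 10 passed, 9 of them among the 10, with 10.1% of all genes called higher.

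Levels of subunits within the same ring or part of the proteasome often differed widely at the transcript level. Per kilobase of exon, WT means in the alpha ring ran from 17.8 CPM for Psma3 and 23.6 for Psma5 up to 142 for Psma7. In the beta ring they ran from 32.7 for Psmb5 to 121 for Psmb4. This range leaves out the inducible counterparts of Psmb5, Psmb6 and Psmb7, so equal levels need not be looked for there. The ATPase genes lay closer together, from 48.4 for Psmc1 to 79.5 for Psmc5, while lid genes ran from 16.3 for Psmd11 to 108 for Psmd13. Base chaperone genes were low, from 9.66 to 17.5, and Psme1 was the highest member at 275, against 94.1 for Psme2. Exon length was taken from GENCODE, and the transcripts these cells use may be shorter than the annotated exons.

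**Figure D4:**
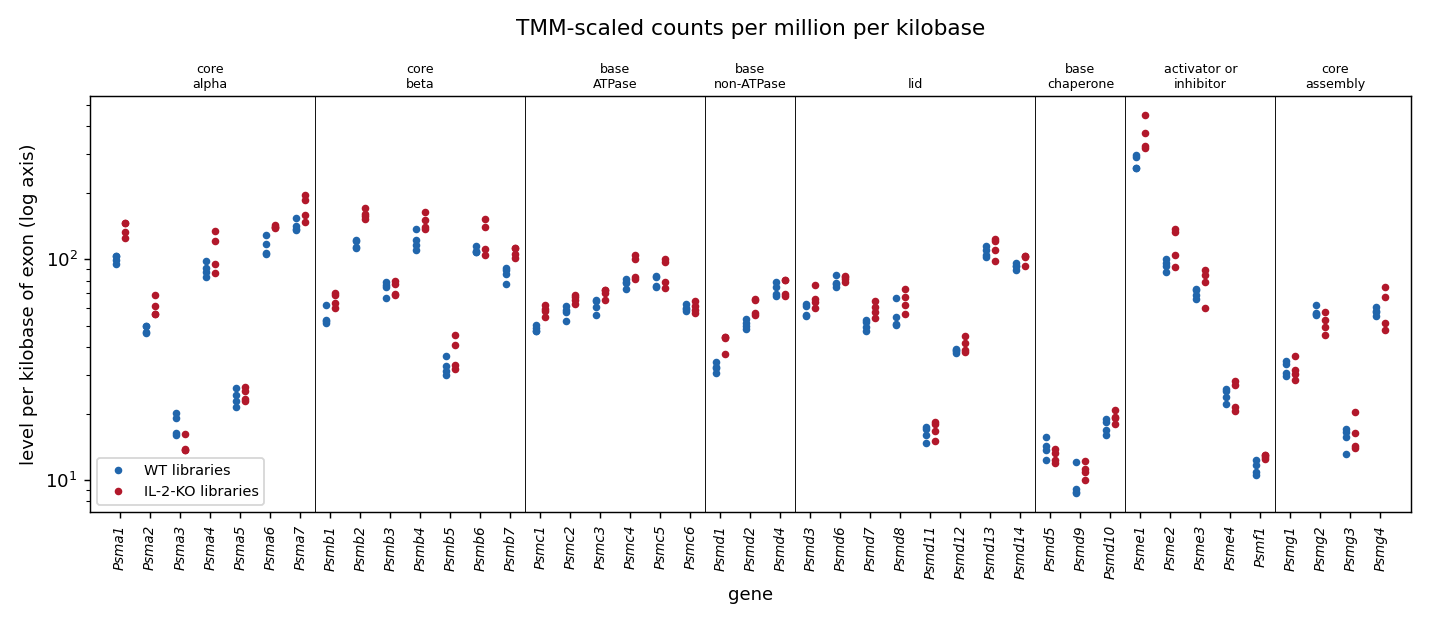
TMM-scaled CPM per kilobase of annotated exon (y axis, log scale) for each of the 43 proteasome genes (x axis), grouped by role, with 1 point for each of the 4 WT (blue) and 4 IL-2-KO (red) libraries. Psme1 is the highest, at a WT mean of 275, and Psma3, Psma5 and Psmb5 stand under the other core genes.

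The interferon-inducible counterparts of the proteolytic subunits were higher too. Already in WT their mean levels lay above those of Psmb5, Psmb6 and Psmb7, at 29.4, 87.7 and 99.5 CPM. These levels were not divided by exon length, so the order of different genes may depend on their lengths. Psmb8, Psmb9 and Psmb10 rose 1.30-fold (405 ± 26.4 to 530.1 ± 61.7 CPM), 1.46-fold (186 ± 7.45 to 274 ± 47.4) and 1.38-fold (146 ± 18.0 to 202 ± 27.0), with limma adjusted p = 0.0197, 0.00797 and 0.0191. Without WT replicate 3 or 4, Psmb8 (adjusted p = 0.0723 and 0.0536) and Psmb10 (0.0642 and 0.0553) did not pass, nor did Psmb8 without the 2 libraries high in myeloid markers (adjusted p = 0.0677). The calls held with the GC and length trend removed (adjusted p = 0.0127, 0.000787 and 0.00376).

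Ratios of CPM + 0.5 within a library were compared for 5 pairs of inducible and constitutive genes. The ratio of Psmb9 to Psmb6 was 2.11, 2.21, 2.08 and 2.06 in WT and 2.55, 2.87, 2.73 and 2.66 in IL-2-KO, with no overlap. It was 1.28-fold higher, with an exact two-sided permutation p = 0.0286, the smallest that 70 assignments can give, and adjusted p = 0.143 over the 5 ratios, so it did not pass. A single separated ratio among the 5 could not have passed in this design. The ratio of Psmb8 to Psmb5 was 13.6 ± 1.41 in WT and 15.5 ± 1.35 in IL-2-KO (exact permutation p = 0.114, adjusted p = 0.286), and that of Psmb10 to Psmb7 was 1.47 ± 0.164 and 1.60 ± 0.137 (exact permutation p = 0.286, adjusted p = 0.464). The ratio of Psme1 to Psme3 was 1.64 ± 0.149 and 2.04 ± 0.727 (exact permutation p = 0.371, adjusted p = 0.464), and its mean in IL-2-KO rests on replicate 3, at 3.09 against 1.50 to 1.97 in the others. That of Psme2 to Psme3 was 0.493 ± 0.022 and 0.571 ± 0.198 (exact permutation p = 0.657, also after adjustment). Without IL-2-KO replicate 3 the log2 differences of these ratios were 0.04 and -0.05.

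**Figure D5:**
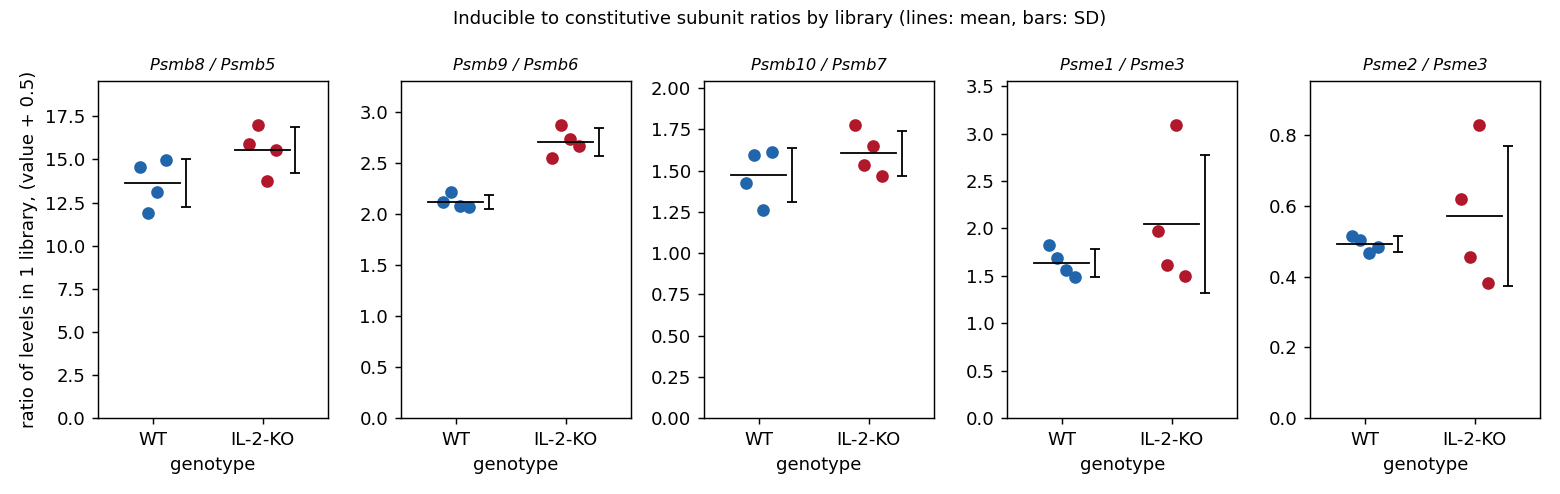
Ratio of an inducible to a constitutive gene within each library, both as CPM + 0.5 (y axis, each panel from 0) for 4 WT (blue) and 4 IL-2-KO (red) libraries, with horizontal lines for means and bars for SD. Psmb9 to Psmb6 separates the groups, at up to 2.21 in WT and from 2.55 in IL-2-KO, and the other 4 ratios overlap.

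Of 31 other genes of the pathway, in 4 lists, 2 rose (6.45%, against 11.1% of all genes) and 1 fell by limma, and their median log2 change was 0.0061. Among 4 subunit and assembly genes with other names, Pomp, the core maturation factor, rose 1.33-fold (106 ± 13.2 to 142 ± 22.4 CPM, limma adjusted p = 0.0404). Its groups overlapped, and it did not pass without WT replicate 1, 3 or 4 or IL-2-KO replicate 1 or 3 (adjusted p from 0.0888 to 0.118). Sem1 and Adrm1, cap subunit genes, did not pass (adjusted p = 0.301 and 0.776), nor did Akirin2 (adjusted p = 0.639). Among 10 genes of proteasome gene regulation 1 rose and 1 fell. Vcp, the ATPase that extracts ubiquitinated proteins, held 139, 140.4, 137 and 138 CPM in WT and 189, 171, 184 and 173 in IL-2-KO, and rose 1.29-fold (limma adjusted p = 0.00236). Its cofactor gene Ufd1 moved the other way, from 132, 136, 142 and 139.8 CPM to 104, 118, 109.6 and 115, and fell by 0.30 on the log2 scale (limma adjusted p = 0.0108). Neither gene overlapped between the groups.

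Nfe2l1, the transcription factor that raises proteasome genes when proteasome activity is short, stood at 80.1 ± 3.39 and 78.4 ± 7.57 CPM (limma adjusted p = 0.801). Ngly1, whose enzyme acts on the Nfe2l1 protein, was at 147 ± 6.94 in WT and 117 ± 18.6 CPM in IL-2-KO, with no overlap (log2 change -0.34, adjusted p = 0.0514). It was called lower without IL-2-KO replicate 2 or 4 (adjusted p = 0.0345 and 0.0286). With the GC and length trend removed, 1 of the 10 regulation genes was higher and 3 were lower, against 10.5% and 16% of all genes. The lower genes were Ufd1, Ngly1 and Nfe2l2 (limma adjusted p = 0.00273, 0.0138 and 0.0173). None of the 11 proteasome-associated genes passed, with 3 at an unadjusted p under 0.05, and the smallest adjusted p was that of Txnl1, a redox protein bound to the cap (0.0777). None of the 6 ubiquitin and E1 genes passed, with 1 at an unadjusted p under 0.05, the E1 gene Uba1 (318 ± 34.8 to 405 ± 75.6 CPM, adjusted p = 0.107).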

How the data were processed

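The members and gene lists were chosen with earlier results of these data known. Each value is a signal on a linear scale, which the authors deposited as TMM-normalized CPM, that is, counts over a scaled library size. Per the submitters' processing notes, the tools named were R 3.4.3, limma 3.34.9 and featureCounts, with the build names GRCm38 and mm10 and no roles, and the aligner and strand setting are not given in the sources used here. The steps of low values gave the counts behind each library: 54.6% to 65.0% of values under 20 were whole counts (within 0.001), the others hundredths, so reads may have been split between genes and no count model was run. The design assumed values fit for limma on a log scale, and this was kept. Of the Entrez identifiers 11651 matched RefSeq (GRCm38.p6) and 72 did not. Exon length and GC content came from GENCODE M21 for 98.2% of genes, all members included.

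A gene was tested if 4 or more libraries had a value of 1 or more (11530 genes). The test was run with limma 3.58.1 in R 4.3.3 on log2(value + 0.5), with a mean-variance trend and Benjamini-Hochberg adjustment, at a threshold of 0.05. The step was tested on simulated data. The 5 ratios were tested by exact two-sided permutation in scipy 1.17.1. Promoters of genes on chromosome 18 were not printed. Named were a panel of main subunits, up to 3 genes per role or list with the smallest adjusted p, and further members or list genes whose values were seen first. Alternatives were other pseudocounts (0.1 and 2), filters, scalings, weights, removal of GC and length trends (splines with 4 degrees of freedom each), a term for cell number, and libraries left out. P-values measure the spread between these libraries.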

Additional observations from a re-analysis of the deposited data

Results flagged for a closer look

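In each group of 4 libraries, 1 library was checked for standing far from the others, over 106 groups (45 members, 3 immunoproteasome genes and 5 ratios, in WT and IL-2-KO). Of these 7 stood out, and chance gives about 1 in 20. Psmd1 was 115 CPM in IL-2-KO replicate 1, against 137 to 139 in the rest of its group, and Psmd14 was 144 CPM there, against 158 to 160.1. Psma3 was 45.8 CPM in IL-2-KO replicate 4, against 38.8 to 39.5. In WT replicate 2, a library high in myeloid markers, Psmb1 was 213 CPM against 176 to 182, and Psmd9 was 31.4 against 22.6 to 23.6. Psmg2 was 80.7 CPM in WT replicate 1, against 73.1 to 74.1, and Psmc3ip was 4.89 CPM in WT replicate 3, against 3.29 to 3.50. Whether the markers of other cells or the cell number had a part in these values was not tested.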

How the results depend on the processing

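Of 43 proteasome genes, the count higher in IL-2-KO, 10 as reported, was 6 with the GC and length trend removed, 19 with array weights and 0 without the 4 libraries of under 2000000 cells. In these fits 10.5%, 19.4% and 2.79% of all genes were called higher, against 11.1%. The count lower, 0 as reported, was 1 with a median shift, 1 with quantile normalization, 2 with the GC and length trend removed and 2 with array weights, when 9.56%, 10.6%, 16.0% and 18.4% of all genes were called lower, against 8.03%. The median log2 change, 0.18 as reported, was 0.084 with the GC and length trend removed. With 1 library left out, the count higher ranged from 4 to 12 (7.34% to 11.2% of all genes), the count lower from 0 to 1 and the median from 0.15 to 0.21. The cause of these shifts was not tested, except that leaving out libraries leaves fewer samples. With 1 library left out the log2 differences of the ratios ranged from 0.13 to 0.25 for Psmb8 to Psmb5, from 0.32 to 0.38 for Psmb9 to Psmb6, from 0.06 to 0.17 for Psmb10 to Psmb7, from 0.04 to 0.39 for Psme1 to Psme3 and from -0.05 to 0.32 for Psme2 to Psme3. Over 48 named genes and 22 alternatives, 944 of 1056 values kept their side of the threshold, 83 lost a call, 29 gained one and 0 called values changed sign. Depth limits Psmc3ip most, at 3.29 CPM or more.

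Replicate numbers are shared between the groups, but same-numbered libraries did not deviate together: the correlations of their deviations from the group means were 0.08, -0.53, -0.40 and 0.39, so the numbers were not taken as pairs. With the replicate block 4 members were higher (7.90% of all genes), and 3 higher and 1 lower with the block and the GC and length trend removed (8.35% and 9.74% of all genes, median 0.084). For the ratios the block left the differences as they were. The smallest sign-flip p was 0.125, which is the lowest that 4 pairs can give, so no ratio could have passed.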
